A study of Mus musculus with 136 samples.

Results

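The genes described here encode 39 enzymes of glucose metabolism: glycolysis with its regulators, the pentose phosphate pathway, the pyruvate dehydrogenase complex with its kinases, glycogen turnover and 2 enzymes of gluconeogenesis. They were chosen by name from a table of 47643 genes, and every one of them had a row in it. RNA was counted separately in embryo and visceral yolk sac for 66 concepti at E8.5, that is, 8.5 days of gestation, all of them from NOD mice, whose females can develop diabetes spontaneously. Diabetic and normal dams were thus of the same strain. With 5–6 somite pairs there were 17 concepti of diabetic dams (9 litters) and 17 of normal dams (10 litters), and with 7–9 somite pairs 16 of diabetic dams (6 litters) and 16 of normal dams (7 litters). The diabetic litter D24M15 gave 7 of the 16 concepti of its later group. Littermates share a dam, so that a test over concepti treats as separate what may be alike within a litter, and litters were therefore compared as well.

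Glycolysis splits glucose into pyruvate and yields ATP without oxygen, and the rodent embryo at the early somite stages is known to rely on it heavily. The pentose phosphate pathway branches off after the first step and supplies NADPH and ribose for nucleotides, while glycogen is the stored form of glucose. Pyruvate dehydrogenase admits pyruvate to the mitochondrion for oxidation, and its kinases (PDK) switch it off. The PFKFB enzymes make and remove fructose 2,6-bisphosphate, the strongest activator of phosphofructokinase 1.

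The libraries held between 1017901 and 5658850 counts of molecules. Levels below are normalized counts, meaning counts divided by a size factor for each library. Since each molecule gives a single tag at its 3′ end, levels of different genes were compared without division by length, although tags can be lost or shared differently for each gene. The label of the tissue was borne out by 2 lists of markers: the summed level of 10 visceral endoderm genes lay between 10372 and 53508 in yolk sacs and between 96.3 and 3362 in embryos, and 5 neural genes gave 660.3 to 2012 in embryos and at most 97.2 in yolk sacs. For 5 heart genes the ranges overlapped, with 151.8 to 3062 in embryos and 33.1 to 1441 in yolk sacs. Their group medians were 1207 to 2251 in embryos and 58.6 to 82.8 in yolk sacs, so that single yolk sacs stood far above the rest. None of the libraries went against its own labelled sex, but in 2 concepti the embryo and the yolk sac carried different labelled sexes, so that each result was also computed without them. These are whole tissues, in which fewer cells of a type and less RNA per cell cannot be told apart.

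The 39 genes together took 0.465 to 0.527% of all counts in the 4 groups of embryos and 0.312 to 0.346% in the 4 groups of yolk sacs, as group medians. Pkm, which encodes the muscle-type pyruvate kinase of the last step, was the most abundant with a mean of 2001 normalized counts over all embryos and yolk sacs. Aldolase A (Aldoa, mean 1254) and triosephosphate isomerase (Tpi1, mean 839.4) of the upper pathway followed. The E1 alpha subunit of pyruvate dehydrogenase, Pdha1, had a mean of 711.9 in embryos, transketolase (Tkt) 786.5 and transaldolase (Taldo1) 534.2, and in yolk sacs the means were 674.0, 455.3 and 485.2, so that their order was not the same in both tissues. Tkt and Taldo1 are the enzymes that return pentose phosphates to glycolysis. At the other end, Pdk4 had a mean of 0.156 and a count in only 18 libraries, and fructose bisphosphatase 1 (Fbp1), an enzyme of gluconeogenesis, had a mean of 0.709 with a count in 66 libraries. Pfkfb2, Pdk2 and the neuronal enolase Eno2 were also low, with means of 3.80, 5.79 and 5.83.

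**Figure D1:**
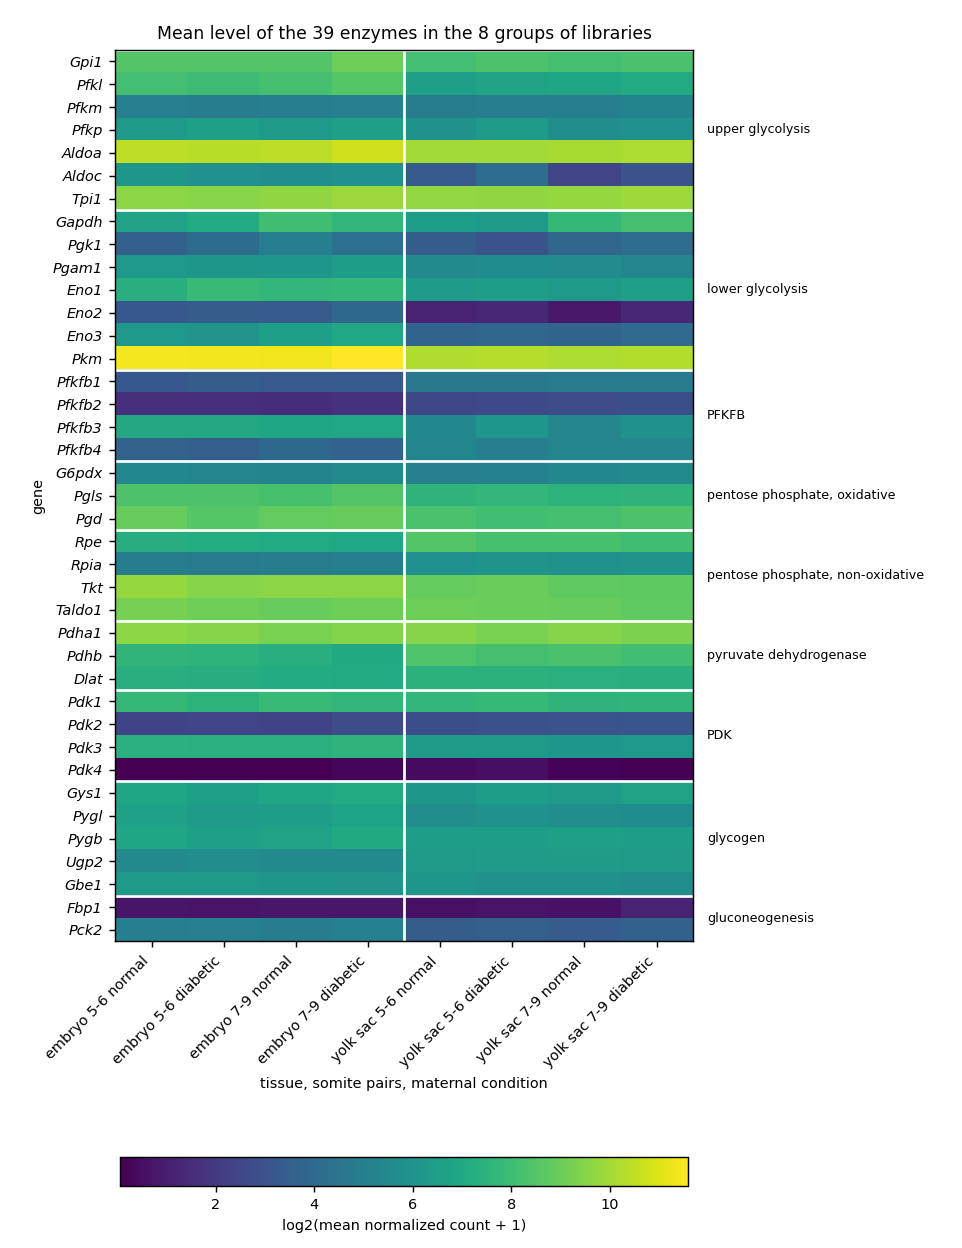
Mean level of each of the 39 enzymes (vertical axis, grouped by pathway role) in the 8 groups of libraries (horizontal axis: tissue, somite pairs, maternal condition), coloured by log2 of the mean normalized count plus 1. Pkm and Aldoa are bright in every group, Pdk4 and Fbp1 are dark in every group, and the rows of Aldoc, Eno3, Pkm and Pck2 are darker in yolk sacs than in embryos.

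Levels of glyceraldehyde-3-phosphate dehydrogenase (Gapdh) and phosphoglycerate kinase (Pgk1) are uncertain. Both have close copies elsewhere in the genome, 90 for Gapdh and 4 for Pgk1 at 95% identity or more over 300 bases, and rows of these copies held 33.2% and 25.6% of the counts of gene and copies together. Gapdh had a mean of only 169.9 normalized counts although it is among the most abundant transcripts of most cells, and Pgk1 had 15.6. For enolase 1 (Eno1), the copies held 1.15%. Among them are copies of 100% identity over 1736 and 1302 bases, and the second held 0 counts. Phosphoglycerate mutase 1 (Pgam1) has a copy of 100% identity over 765 bases, also with 0 counts. A low share on copy rows does not show that no tags were lost, so that the levels of Eno1 and Pgam1 are uncertain as well.

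Within groups the coefficient of variation had a median of 22.1% over the 22 members whose mean reached 50 normalized counts in each group. Dihydrolipoamide acetyltransferase (Dlat), the core of pyruvate dehydrogenase, was the least variable of these at 12.7%, and Gapdh the most variable at 48.6%. Pgk1, which is below that level, varied by 96.2%. After subtraction of the group means, Aldoa and Pkm moved together over the libraries of the 66 embryos and 66 yolk sacs (Spearman's rho 0.79), as did Tkt with the brain glycogen phosphorylase Pygb (rho 0.70), glucose-6-phosphate isomerase Gpi1 with Aldoa (rho 0.68), and ribulose-phosphate epimerase Rpe with the E1 beta subunit Pdhb (rho 0.68). Pdhb ran opposite to the liver-type phosphofructokinase Pfkl (rho -0.67) and to Gpi1 (rho -0.66). Gapdh and Pgk1 moved together with a rho of 0.80. Over the 231 pairs of the 22 genes the median rho was 0.07, 30 pairs lay above 0.5 and 37 below -0.3, so that the enzymes did not vary as a single unit. These correlations share the libraries and their scaling and are descriptions only.

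Embryos of diabetic and normal pregnancies were compared first at the 5–6 somite stages, where 35 of the 39 genes had enough counts for a test (Pfkfb2, Pdk2, Pdk4 and Fbp1 did not). A single gene passed an adjusted p of 0.05 in edgeR's quasi-likelihood test: Pgd, which encodes 6-phosphogluconate dehydrogenase of the oxidative pentose phosphate branch, was lower in diabetic pregnancies. Among all genes tested, 0.872% were called lower in this comparison. The median log2 difference over the 35 members was -0.06, against 0.004 over all 11004 genes tested.

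Pgd had between 328.6 and 444.7 normalized counts (median 374.0, n = 17) in embryos of diabetic pregnancies and between 339.0 and 688.9 (median 485.4, n = 17) in those of normal pregnancies. All 17 embryos of diabetic pregnancies lay below the median of the normal group, 3 of them below its lowest embryo, and the groups overlapped. The log2 difference was -0.33 ± 0.07 (SE; 1.25-fold lower; adjusted p = 0.0188). With litters as units, each of the 9 diabetic litters had a mean under the median of the 10 normal ones, and a two-sided exact permutation test over the 92378 assignments gave p = 0.00405. This test was run only for members already called in the same libraries, here and below, so that it is no independent support. The call was lost with the litter as a random block (limma, adjusted p = 0.164) and with counts summed per litter (adjusted p = 0.357), and it was lost without litter D28M53 (adjusted p = 0.083) or N28M06 (adjusted p = 0.134), which left no member called. Littermates were correlated by 0.251 at this stage as estimated by limma.

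Among the other members, 10 had an unadjusted p under 0.05. The share of all genes under this unadjusted threshold was not computed, here or below, so that such counts do not set the members apart. The largest difference of these was that of Eno1, with 116.1 to 406.1 (median 232.2) in embryos of diabetic and 77.7 to 326.5 (median 145.3) in those of normal pregnancies. It amounted to a log2 difference of 0.57 ± 0.17 with an adjusted p of 0.0726, and 16 of 17 embryos of diabetic pregnancies were above the normal median. DESeq2 put the same gene just past the threshold (adjusted p = 0.0491), and edgeR did so without litter N23M31 (adjusted p = 0.0382) or N24M21 (adjusted p = 0.0151). Gapdh also had a positive value (0.46), and the remaining 8 had negative ones between -0.32 and -0.16. They were the glycogen enzymes Gys1 (synthase, -0.32), Pygl (liver phosphorylase, -0.27) and Pygb (-0.24), Tkt (-0.28) and Taldo1 (-0.18) of the pentose phosphate pathway, Pdk1 (-0.22), Pdha1 (-0.16) and aldolase C (Aldoc, -0.24), and their adjusted p-values were between 0.159 and 0.227.

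**Figure D2:**
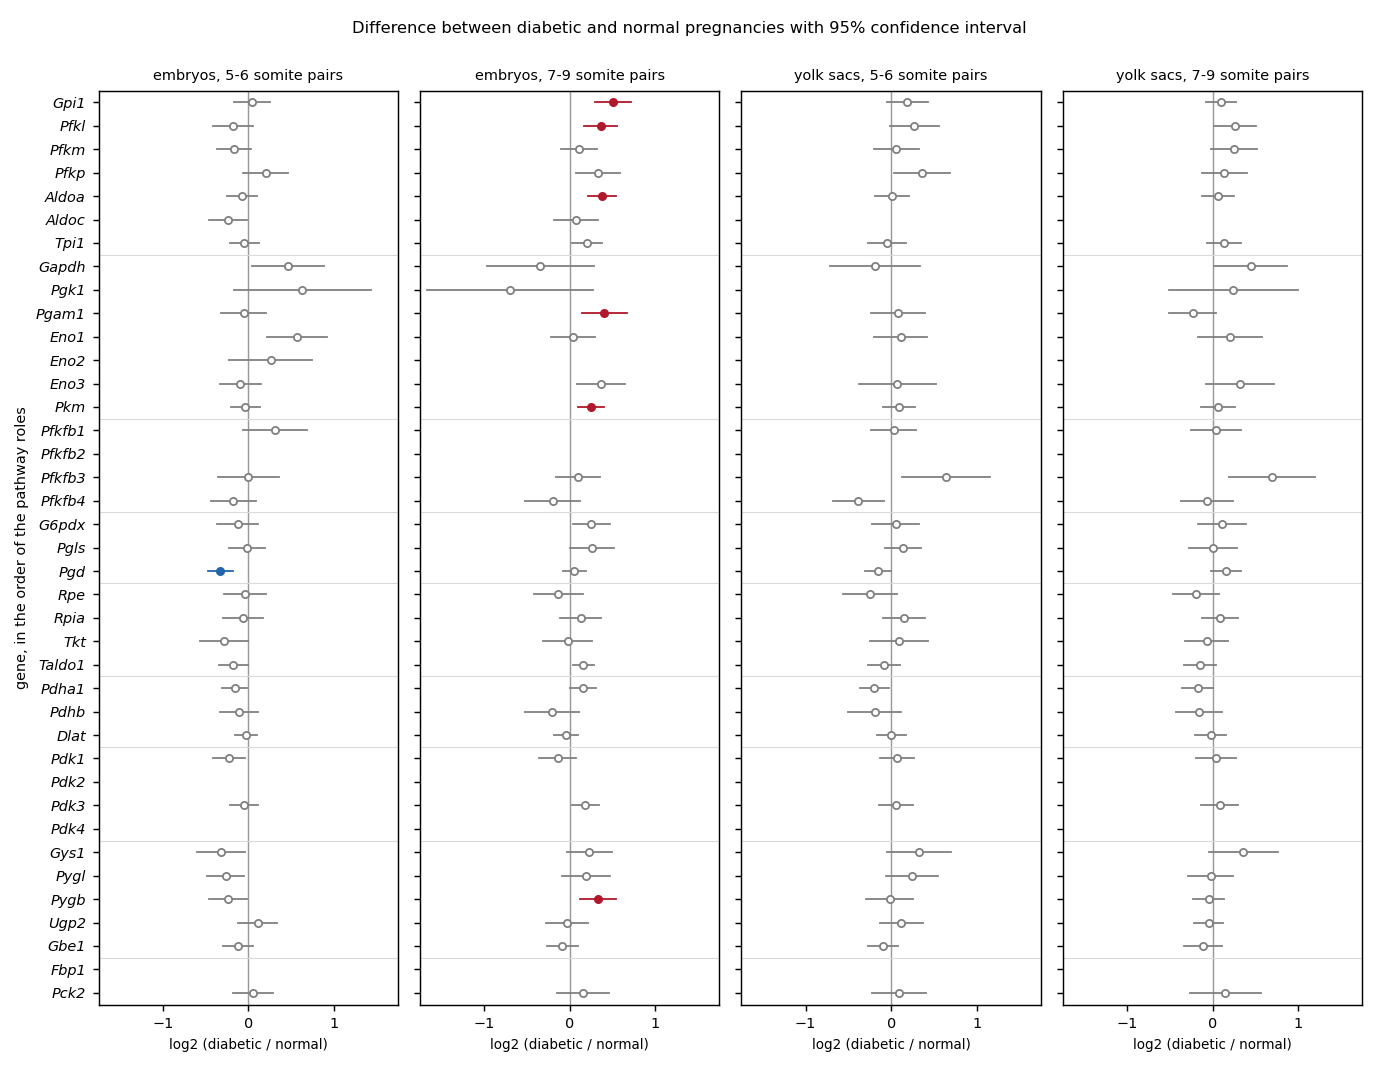
Log2 difference between diabetic and normal pregnancies for each member (vertical axis, in pathway order) in embryos and yolk sacs at both stages, with 95% confidence intervals from edgeR. Filled points passed an adjusted p of 0.05 (red higher, blue lower), genes without a point had too few counts, and the calls are Pgd in the first panel and 6 genes in the second.

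At the 7–9 somite stages, 6 of 33 members tested were higher in embryos of diabetic pregnancies and none was lower, where 5.2% of all genes tested were called higher. Of the 7 enzymes of the upper glycolytic pathway, 3 rose: Gpi1, which converts glucose-6-phosphate to fructose-6-phosphate, Pfkl, which commits it to glycolysis, and Aldoa, which splits the product. In the lower pathway 2 of 6 tested rose, phosphoglycerate mutase 1 (Pgam1) and Pkm. Pygb, which releases glucose-1-phosphate from glycogen, was the sixth. The median log2 difference over the 33 members was 0.16 against -0.01 over all 10628 genes, and 23 of the 33 were positive. Among the pentose phosphate, pyruvate dehydrogenase, PDK and PFKFB genes none was called.

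Gpi1 showed the largest difference of the 6. It had 356.9 to 907.1 normalized counts (median 513.2, n = 16) in embryos of diabetic and 289.5 to 459.5 (median 357.6, n = 16) in those of normal pregnancies, so that 10 of 16 lay above the highest normal embryo. The difference was 1.42-fold, or 0.51 ± 0.10 on the log2 scale (edgeR, adjusted p = 0.00266). Aldoa followed, with 1346 to 2741 (median 1677) against 1065 to 1620 (median 1348), a 1.3-fold difference (0.38 ± 0.08, adjusted p = 0.00416), and again 10 of 16 embryos were above every normal one. For both genes the means of all 6 diabetic litters lay above those of all 7 normal litters. A two-sided exact permutation test gave p = 0.000583 for each, which is the smallest value the 1716 assignments of litters allow in a two-sided test of groups of 6 and 7.

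Pfkl had 246.8 to 556.7 (median 342.7) in embryos of diabetic and 186.9 to 349.6 (median 299.1) in those of normal pregnancies, a log2 difference of 0.36 ± 0.10 (adjusted p = 0.0178). Pkm reached 2381 to 4145 (median 2974) against 1905 to 3180 (median 2513), which is 0.25 ± 0.08 on the log2 scale (adjusted p = 0.0343). The groups overlapped for both genes, with 7 and 6 embryos of diabetic pregnancies above the normal range. Pygb lay at 96.6 to 216.7 (median 123.5) against 71.6 to 146.2 (median 98.4), a log2 difference of 0.33 ± 0.11 (adjusted p = 0.0432). Pgam1, whose level is uncertain because of its copy, lay at 64.3 to 161.1 (median 84.3) against 33.1 to 106.3 (median 69.4). Its difference was 0.40 ± 0.13 (adjusted p = 0.0443). With litters as units the exact permutation test gave p = 0.00175 for Pkm, 0.0035 for Pygb, 0.0367 for Pgam1 and 0.0635 for Pfkl. These p-values are for genes picked by their difference in the same libraries, and they were not adjusted over the genes.

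**Figure D3:**
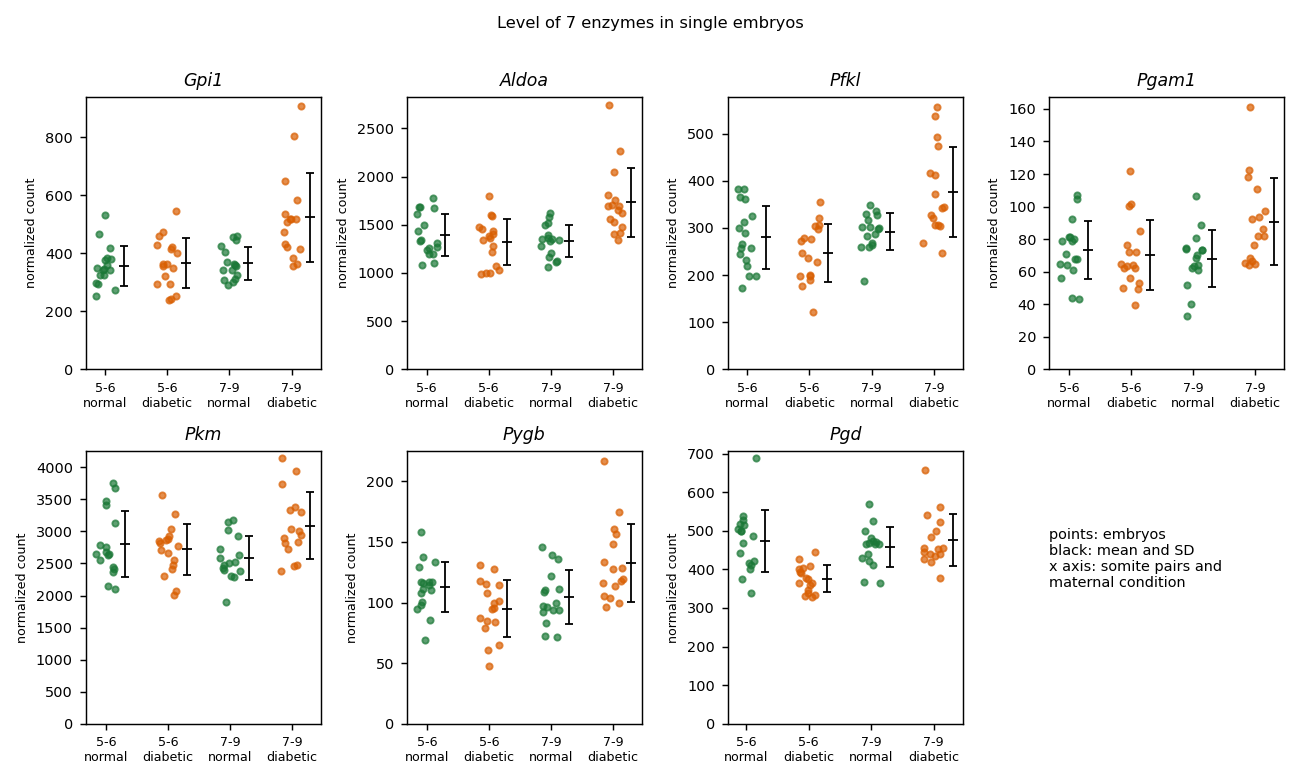
Normalized counts (vertical axes, from 0) of the 7 enzymes called under maternal diabetes in single embryos, by somite pairs and maternal condition, with the group mean and SD beside the points. Gpi1 and Aldoa stand highest in the 7–9 somite embryos of diabetic pregnancies, and Pgd is lowest in the 5–6 somite embryos of diabetic pregnancies.

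How far these 6 calls held differed by gene. Gpi1 and Aldoa were called in 9 of 10 alternative settings and whichever of the 13 litters was left out, the exception being counts summed per litter (adjusted p = 0.0663 and 0.0722). With the litter as a random block (limma, litter correlation 0.128) these were the only 2 members called, and Pfkl, Pkm, Pygb and Pgam1 had adjusted p-values of 0.0597, 0.0837, 0.093 and 0.102. Pfkl was called in 8 settings and lost its call without D28M23 or N28M07. Pkm was called in 5 settings and lost its call without D28M23, D28M36, N24M29, N28M03, N28M05 or N28M07. Pygb and Pgam1 were called in 4 settings each and in 5 of the 13 fits without a litter, which for Pygb were those without D23M26, D24M15, D28M24, N28M03 or N28M05 and for Pgam1 those without D23M26, D24M15, D28M24, N28M03 or N28M30. The number of members called was 2 without litter D28M23 or N28M07, 3 without D28M36 or N24M29, and 8 without D24M15, the litter of 7 concepti. It was 3 (Gpi1, Aldoa and Pfkl) without N28M07E, the only conceptus of unlike sexes with 7–9 somite pairs, so that a single normal embryo was left out. With trends on GC content and transcript length removed in each library, 3 members were called: Gpi1 (0.46, adjusted p = 0.00697), Pfkl (0.28, adjusted p = 0.0278) and Aldoa (0.23, adjusted p = 0.0396). The log2 differences rose with the GC content of the transcript, with a rank correlation of 0.39 over the 33 members and 0.31 over all genes tested, and the calls that remain with these trends removed are those just named.

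Of 5 cardiac genes (Myl7, Tnnt2, Nkx2-5, Actc1 and Myl4), 3 were higher in the same embryos of diabetic pregnancies, and their summed level was 1762 to 3062 (median 2251) there and 1165 to 2142 (median 1695) in normal ones. The neural genes summed to 789.0 to 1865 against 997.4 to 1797, and the visceral endoderm genes to 141.1 to 3362 (median 537.2) against 96.3 to 1450 (median 449.3), with no gene of either list called. The 5 genes of primitive erythroid cells summed to 36.7 to 4633 (median 230.3) against 19.3 to 1577 (median 186.7), and none was called. The part of heart tissue or of the other cells in the differences of the 6 genes was not tested.

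Another 7 members had an unadjusted p under 0.05 at this stage, all with a positive difference, and the share of all genes under that threshold was not computed. These were Pfkp (platelet-type phosphofructokinase, 0.33) and the muscle-type enolase Eno3 (0.37), glucose-6-phosphate dehydrogenase (G6pdx, 0.25), Tpi1 (0.20), Pdk3 (0.18), Pdha1 (0.16) and Taldo1 (0.16), with adjusted p-values between 0.088 and 0.162. G6pdx had 36.96 to 55.1 (median 44.1) in embryos of diabetic and 25.1 to 59.8 (median 35.2) in those of normal pregnancies, and all 16 of the former lay above the normal median. Gapdh (-0.35 ± 0.31) and Pgk1 (-0.70 ± 0.48) had values below 0 with wide errors.

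The promoters of the 6 genes are shown because all of them were called in the same comparison. They are RefSeq windows from 250 bases before to 50 after a transcription start in GRCm38.p6, for each gene the first window with the most motif matches, and capitals mark the letters ACGTG or GCGTG on either strand (read as CACGT or CACGC on the other strand), the core of the hypoxia response element. The windows are chr7:34230287-34230586 for Gpi1, chr7:126799129-126799428 for Aldoa, chr10:78009758-78010057 for Pfkl (all on the minus strand), chr9:59656977-59657276 for Pkm, chr2:150786546-150786845 for Pygb and chr19:41911621-41911920 for Pgam1 (plus strand).
Gpi1: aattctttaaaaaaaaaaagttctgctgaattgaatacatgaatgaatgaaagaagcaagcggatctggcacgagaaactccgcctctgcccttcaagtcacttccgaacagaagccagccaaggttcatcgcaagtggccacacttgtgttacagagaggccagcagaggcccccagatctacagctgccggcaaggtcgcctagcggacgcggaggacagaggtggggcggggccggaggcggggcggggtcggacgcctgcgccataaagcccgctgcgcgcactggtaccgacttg
Aldoa: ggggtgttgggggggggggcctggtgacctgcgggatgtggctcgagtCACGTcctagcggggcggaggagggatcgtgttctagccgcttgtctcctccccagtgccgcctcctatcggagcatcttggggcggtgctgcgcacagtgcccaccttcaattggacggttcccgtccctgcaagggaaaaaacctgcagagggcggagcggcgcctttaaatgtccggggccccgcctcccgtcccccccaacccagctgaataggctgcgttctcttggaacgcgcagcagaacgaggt
Pfkl: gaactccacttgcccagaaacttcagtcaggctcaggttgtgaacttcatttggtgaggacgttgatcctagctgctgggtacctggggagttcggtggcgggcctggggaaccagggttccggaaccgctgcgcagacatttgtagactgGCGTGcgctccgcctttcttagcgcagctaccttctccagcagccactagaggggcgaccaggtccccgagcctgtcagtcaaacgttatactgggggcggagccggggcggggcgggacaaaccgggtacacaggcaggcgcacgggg
Pkm: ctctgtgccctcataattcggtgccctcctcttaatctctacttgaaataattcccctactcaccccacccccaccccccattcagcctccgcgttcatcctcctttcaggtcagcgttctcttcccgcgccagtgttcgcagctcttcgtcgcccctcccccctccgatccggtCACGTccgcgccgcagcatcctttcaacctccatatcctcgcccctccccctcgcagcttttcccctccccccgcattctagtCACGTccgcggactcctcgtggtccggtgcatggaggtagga
Pygb: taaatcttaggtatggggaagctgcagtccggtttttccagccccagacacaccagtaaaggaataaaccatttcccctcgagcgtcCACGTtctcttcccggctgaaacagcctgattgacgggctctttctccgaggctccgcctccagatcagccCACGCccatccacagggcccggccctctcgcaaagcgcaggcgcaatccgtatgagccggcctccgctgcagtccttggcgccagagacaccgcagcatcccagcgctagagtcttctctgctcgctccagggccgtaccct
Pgam1: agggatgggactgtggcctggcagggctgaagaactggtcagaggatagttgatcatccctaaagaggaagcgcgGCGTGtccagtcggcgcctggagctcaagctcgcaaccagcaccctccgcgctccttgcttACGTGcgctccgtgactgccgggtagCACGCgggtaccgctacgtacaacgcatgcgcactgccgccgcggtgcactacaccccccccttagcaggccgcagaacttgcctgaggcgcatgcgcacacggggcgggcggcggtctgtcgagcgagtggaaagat

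The windows shown were picked by their matches, so that no count is taken over them. Of all 9 windows of the 6 genes 6 held a core, and the single window of Gpi1 held none. Over all 39 members 69% of 58 windows held one, against 43.8% of all 32851 promoter windows, and 79.5% of the genes had at least 1 such window, against 46.7% of all 27025 genes with a window. For ACGTG the shares of windows were 34.5% and 19.6%, and for GCGTG 55.2% and 32.4%. The E-box CACGTG, which contains ACGTG, occurred in 6.9% of the members' windows and in 7.15% of all. No allowance was made for the base composition of the windows. A match of letters is a description and no binding site.

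The effect of maternal diabetes differed between the stages for 7 of 35 members, by an interaction term in edgeR, all in the positive direction (later minus earlier), where 4.35% of all genes had a positive call. Pygb (0.58, adjusted p = 0.0169), Pfkl (0.55, 0.0227), Gpi1 (0.48, 0.0334) and Aldoa (0.46, 0.0133) are among the genes higher at the later stage. Pgd (0.39, adjusted p = 0.0102), lower at the earlier stage, is called as well, and so are Taldo1 (0.35, adjusted p = 0.0287) and Pdha1 (0.34, adjusted p = 0.0331), which were called at neither stage alone. The median interaction over the 35 members was 0.27, against 0.01 over all 11304 genes. Several litters gave concepti to both stages. With the litter as a random block (limma, litter correlation 0.191) 7 members were called again, Pygb, Pfkl, Gpi1, Aldoa, Pgd and Taldo1 with adjusted p-values between 0.00937 and 0.0314 and Gys1 in addition (0.0229), while Pdha1 lost its call (0.0505). In yolk sacs the same interaction gave no call among 35 members, nor among all genes (0%). A single member, Pgd, had an unadjusted p under 0.05 there.

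In yolk sacs no member passed the test between diabetic and normal pregnancies at either stage. At the 5–6 somite stages 32 members were tested and 0% of all genes were called in either direction, and at the 7–9 somite stages 33 were tested and 0.0194% of all genes were called. Unadjusted p-values under 0.05 were found for 4 and 3 members, and no alternative setting that was run called a member. The largest differences were those of Pfkfb3, the PFKFB isoform known for strong kinase activity. It had 19.6 to 152.0 (median 56.6) in yolk sacs of diabetic and 9.81 to 111.9 (median 39.7) in those of normal pregnancies at the earlier stage, a log2 difference of 0.64 ± 0.25 (adjusted p = 0.526). At the later stage it had 19.4 to 200.5 (median 41.4) against 17.9 to 63.6 (median 36.8), a difference of 0.69 ± 0.25 (adjusted p = 0.34), with 5 of 16 yolk sacs of diabetic pregnancies above the normal range.

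Transcripts of trophoblast and decidua had higher medians in the same groups. Of the 6 genes of that list only 1 had enough counts for a test at the earlier stage (log2 difference 0.95, not called) and 0 did at the later stage. The summed level of 6 such genes was 3.28 to 496.9 (median 82.7) in yolk sacs of diabetic and 5.83 to 257.8 (median 19.2) in those of normal pregnancies with 5–6 somite pairs, and 3.88 to 734.6 (median 33.9) against 2.44 to 78.7 (median 18.7) with 7–9. Their part in the values of Pfkfb3 was not tested. Another gene of the PFKFB family, Pfkfb4, had 16.9 to 48.4 (median 33.0) against 25.98 to 78.1 (median 38.3) at the earlier stage (-0.38 ± 0.15, adjusted p = 0.526).

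Whether diabetes acted differently on embryo and yolk sac was tested as an interaction of tissue and condition. It gave no call among 34 members at either stage, with 0% and then 0.389% of all genes called. At the later stage 8 members had an unadjusted p under 0.05, with Pgam1 (-0.63, adjusted p = 0.0776) and Gpi1 (-0.41, adjusted p = 0.094) nearest to the threshold, and at the earlier stage 6 members did. The rise of the 6 genes in late embryos is therefore not shown to be particular to the embryo.

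The tissues themselves differed for most members. At the 5–6 somite stages 9 of 34 members were higher in yolk sacs and 21 were lower, where 39.4% of all genes were higher and 39.8% lower. At the 7–9 somite stages the counts were 7 and 21 of 34, where 38.7% and 42.6% of all genes were called. The median log2 difference of the members was -0.31 and -0.47, against values of -0.003 and -0.04 over all genes. For 25 members the call and its direction were the same at both stages. The matching share over all genes was not computed, and 79.2% and 81.3% of all genes were called in either direction at the single stages.

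Most genes of the glycolytic chain were lower in yolk sacs. In the lower pathway all 6 genes tested at the earlier stage and 4 at the later stage were lower, and in the upper pathway 5 of 7 were lower at each. Eno3 had 2.37 to 31.5 (median 12.6, n = 34) in yolk sacs and 38.3 to 99.0 (median 70.2, n = 34) in embryos at the earlier stage, without overlap and 5.04-fold lower (log2 -2.33, edgeR, adjusted p = 3.77e-29). At the later stage it had 5.58 to 29.4 (median 13.3, n = 32) against 57.4 to 186.7 (median 105.5, n = 32), again without overlap. Pkm ran from 837.6 to 1903 (median 1148) in yolk sacs and from 2009 to 3762 (median 2689) in embryos at the earlier stage (log2 -1.12), and from 902.8 to 1857 against 1905 to 4145 at the later stage (log2 -1.24), so that every yolk sac lay below every embryo of its stage.

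Aldoc, a minor isoform next to Aldoa, was 9.47-fold lower in yolk sacs at the later stage, with 0 to 27.5 (median 5.23) against 38.2 to 112.5 (median 50.03) in embryos. At the earlier stage it was 4.74-fold lower, and 1 yolk sac at 87.2 reached the embryos' range. Pfkl was lower by 1.31 and 1.39 on the log2 scale with medians of 100.4 and 123.9 in yolk sacs and 262.0 and 312.4 in embryos. Pck2, the mitochondrial phosphoenolpyruvate carboxykinase, had a log2 difference of -1.58 at each stage, with medians of 10.2 and 9.68 in yolk sacs against 30.3 and 33.5 in embryos.

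Of the glycolytic chain only Tpi1 was higher in yolk sacs, at the earlier stage (0.21, adjusted p = 0.00383) and without a call at the later (0.10, adjusted p = 0.131). The larger differences in this direction lay among its regulators. Pfkfb4 had 16.9 to 78.1 (median 34.7) in yolk sacs and 5.11 to 16.2 (median 11.4) in embryos at the earlier stage, with no overlap and a 3.16-fold difference, and 18.5 to 72.5 (median 37.7) against 5.56 to 21.6 (median 12.3) at the later stage (log2 1.57). Pfkfb1, known for its role in liver, was 2.85-fold and 3.04-fold higher at the 2 stages, with medians of 23.4 and 25.1 against 9.30 and 8.70. Pfkfb3 ran the other way, lower by 1.19 and 1.26 on the log2 scale (edgeR, adjusted p = 2.58e-10 and 2.82e-12).

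In the non-oxidative pentose phosphate branch the members parted. Rpe and ribose-5-phosphate isomerase (Rpia), which interconvert the pentose phosphates, were higher in yolk sacs by 1.21 and 1.14 on the log2 scale with 5–6 somite pairs and by 1.11 and 1.06 with 7–9. Tkt was lower by 0.67 and 0.82, and Taldo1 had -0.06 at the earlier stage, where it was not called, and -0.13 at the later stage (adjusted p = 0.0282). Oxidative steps were lower: 3 of 3 at the earlier stage and 2 of 3 at the later, where G6pdx had 0.13 (adjusted p = 0.152). Among the glycogen genes Ugp2, which makes UDP-glucose, was higher by 0.81 and 0.84, and Gys1, Pygl and the branching enzyme Gbe1 were lower at both stages.

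Of the pyruvate dehydrogenase subunits, Pdhb was higher in yolk sacs (0.81 and 1.05 on the log2 scale) with medians at the later stage of 268.5 against 146.3, and Dlat by 0.26 at both, while Pdha1 was not called. Pdk3 was lower by 1.08 and 1.29, without overlap at either stage (55.0 to 103.0 against 111.2 to 224.4, and 44.65 to 96.96 against 135.5 to 232.0). Pdk1 had 0.18 at the earlier and -0.18 later, both called (adjusted p = 0.0148 and 0.0317), and the difference between the stages was not tested. With the conceptus as a replicate block, which pairs embryo and yolk sac, Pgk1 lost its call at the earlier stage (adjusted p = 0.0433 without and 0.0526 with the block), and Pdha1 (0.0448) and Pygb (0.0232) gained one.

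**Figure D4:**
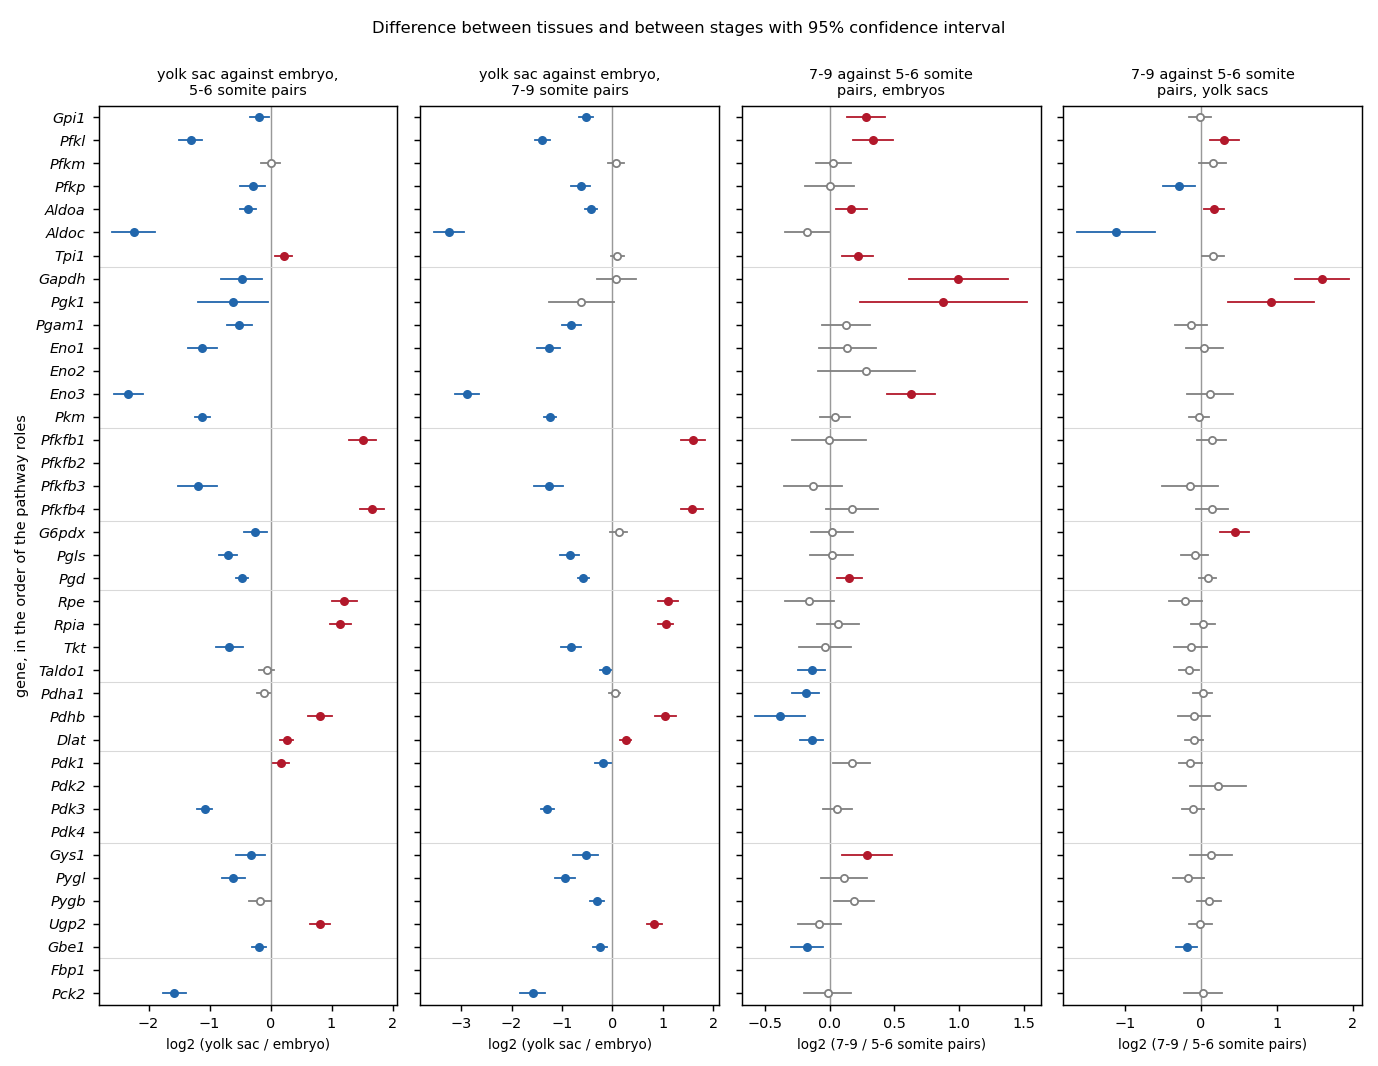
Log2 differences of each member (vertical axis, in pathway order) between yolk sac and embryo at both stages and between the 7–9 and the 5–6 somite stages in both tissues, with 95% confidence intervals from edgeR and a horizontal scale of its own for each panel. Filled points passed an adjusted p of 0.05 (red higher, blue lower). The tissue panels are alike, with Eno3 and Aldoc far to the left and Pfkfb1 and Pfkfb4 to the right.

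Shares within enzyme families describe the same contrast. Of the counts of the 3 phosphofructokinase 1 genes, Pfkl took group means of 66.6 to 74.1% in embryos and 50.1 to 58.9% in yolk sacs, where Pfkp and the muscle-type Pfkm took more. Pfkfb3 made up 81.8 to 84.4% of the PFKFB counts in embryos, and in yolk sacs of diabetic pregnancies 49.7% and then 41.9% with stage and in those of normal pregnancies 35.6% and 34.2%, next to 25.7 to 36.4% for Pfkfb4. Pdk3 took 41.6 to 47.4% of the PDK counts in embryos and 26.1 to 27.3% in yolk sacs, with Pdk1 taking nearly all of the rest. Eno3 took 22.5 to 35.1% of enolase counts in embryos and 13.9 to 15.4% in yolk sacs, and Aldoa over 95.2% of aldolase counts in every group. Rows of the Eno1 copies were not part of the enolase counts, so that the enolase shares are uncertain.

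**Figure D5:**
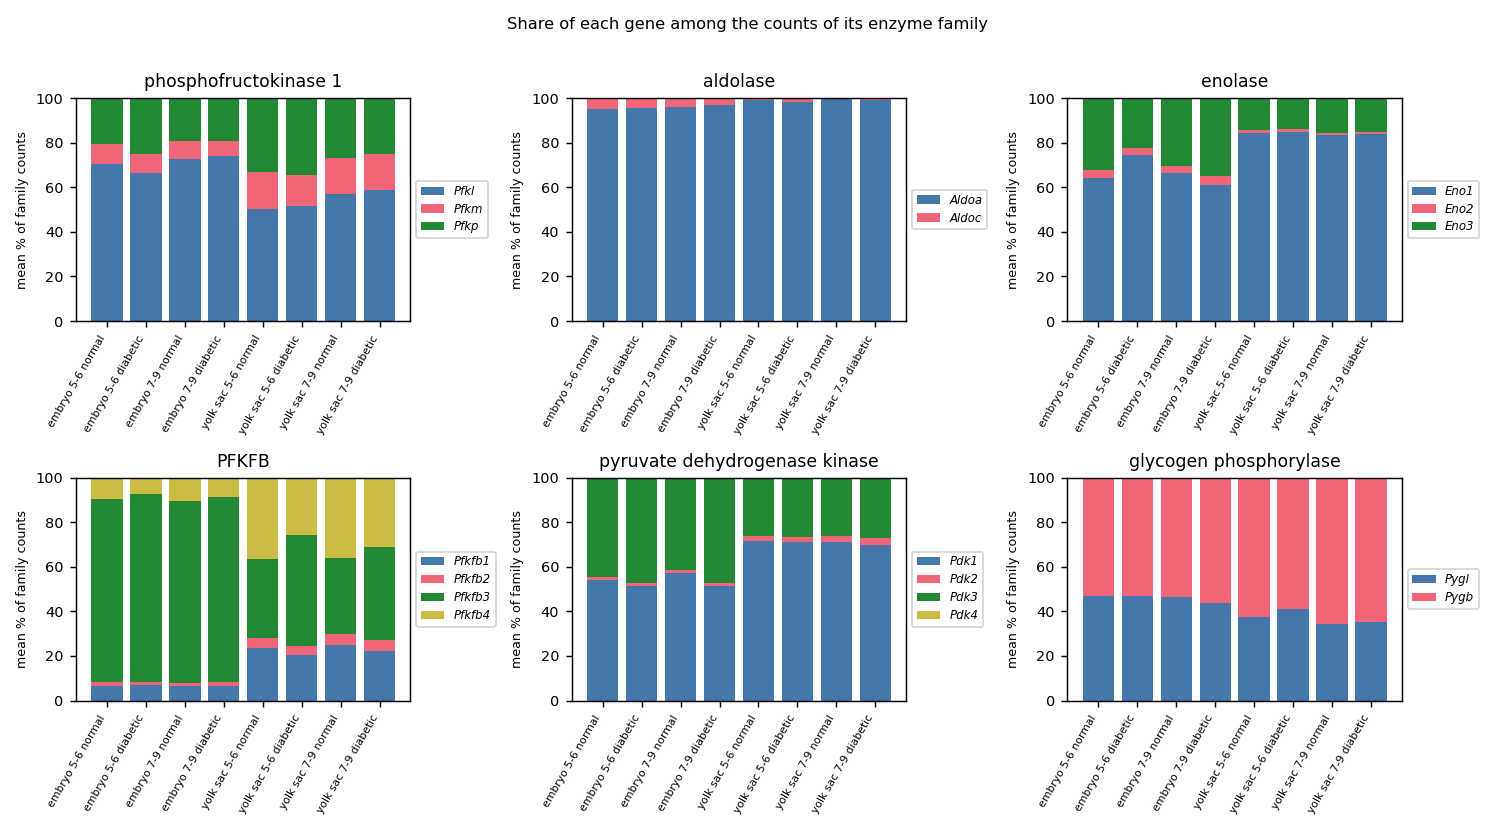
Mean share of each gene among the counts of its enzyme family (vertical axes, percent, from 0 to 100) in the 8 groups of libraries (horizontal axes). Pfkfb3 fills most of the PFKFB bars in embryos at 81.8 to 84.4% and less than 50% in yolk sacs, where Pfkfb1 and Pfkfb4 take larger shares.

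Between the stages, averaged over both maternal conditions, 9 of 35 members were higher and 5 lower in embryos with 7–9 somite pairs, where 15% of all genes were higher and 15.8% lower. In yolk sacs 5 of 35 were higher and 3 lower, where 21.7% and 18.3% of all genes were called. Aldoa, Gapdh, Pfkl and Pgk1 were higher and Gbe1 was lower with stage in both tissues, and the share of all genes called alike in both was not computed. Pfkl rose by 0.34 in embryos and 0.31 in yolk sacs on the log2 scale, and Aldoa had 0.17 in each. In embryos of normal pregnancies the mean of Pfkl was 280.4 and then 292.2 with stage, and that of Aldoa 1395 and then 1331. In those of diabetic pregnancies the means were 247.4 and then 376.7 for Pfkl, and 1321 and then 1732 for Aldoa. The call of Aldoa in yolk sacs (adjusted p = 0.0333) held in 3 of 10 alternative settings, and its difference was 0.0009 with GC and length trends removed (adjusted p = 0.993).

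Gapdh changed most. In yolk sacs it went from 4.38 to 166.8 (median 83.2, n = 34) to 53.4 to 567.3 (median 249.2, n = 32), which is 3.03-fold (edgeR, adjusted p = 6.36e-11), and in embryos from 44.98 to 254.5 (median 107.5) to 34.7 to 696.7 (median 221.3), or 1.99-fold (adjusted p = 4.86e-05). Pgk1 was higher by 0.88 in embryos and 0.92 in yolk sacs on the log2 scale at medians of 6.52 to 20.4 normalized counts. With the rows of the copies added, Gapdh still had 0.80 and 1.36 and Pgk1 0.69 and 0.69. In embryos Pgk1 lost its call without D23M26, D24M15, D28M53, N24M21, N28M06, N28M22 or N28M30 (adjusted p = 0.0501 to 0.138) and with the litter as a random block (limma, adjusted p = 0.302), and Aldoa did without D28M23, D28M36, D28M53, N28M06 or N28M30 (0.0501 to 0.0755).

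Eno3 was 1.54-fold higher in the later embryos, with 57.4 to 186.7 (median 105.5) against 38.3 to 99.0 (median 70.2), and 18 of 32 embryos above the earlier range (adjusted p = 4.32e-07). Heart genes were higher as well, 5 of 5, and 3 of 3 tested genes of primitive erythroid cells, whose part in this was not tested. Gys1 (0.29), Gpi1 (0.28), Tpi1 (0.22) and Pgd (0.15) were also called higher in the later embryos, as averages over both maternal conditions. In embryos of normal pregnancies the mean of Gpi1 was 357.3 and then 366.6 with stage, and that of Pgd 473.4 and then 457.3. In those of diabetic pregnancies the means were 366.1 and then 524.3 for Gpi1, and 375.8 and then 475.5 for Pgd. The pyruvate dehydrogenase subunits were lower in the later embryos, 3 of 3. Pdhb was at 38.9 to 218.7 (median 146.3) against 114.3 to 257.4 (median 181.1), a log2 difference of -0.38. Pdha1 had -0.19 and Dlat -0.14. For Pdha1 the difference was -0.36 within normal pregnancies alone, and in diabetic ones its mean was 714.2 and then 700.1 with stage. Gbe1 (-0.18) and Taldo1 (-0.14) completed the lower genes. Gpi1, Pgd, Pdha1 and Taldo1 were called in the stage by diabetes interaction above, so that their averages do not describe both conditions alike. Dlat lost its call without D24M15 (adjusted p = 0.12), Gbe1 without D24M15, D28M02, D28M36, N28M05 or N28M06 (0.0505 to 0.12), and Taldo1 kept its call in only 10 of the 22 fits without a litter. The log2 differences between embryo stages had a rank correlation of 0.58 with GC content over the 35 members and 0.32 over all genes, and with GC and length trends removed 7 members were higher and 2 lower.

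In yolk sacs G6pdx, the entry of the pentose phosphate pathway, was 1.36-fold higher at the later stage, with 20.8 to 88.4 (median 44.5) against 12.6 to 57.6 (median 31.1). Aldoc was lower by 1.12 and Pfkp by 0.29 on the log2 scale. The split of 5 higher and 3 lower became 4 and 4 with RLE factors and 4 and 6 with GC and length trends removed. Of 10 visceral endoderm genes 8 were higher at the later stage and 4 of 5 of the erythroid genes, while 1 heart and 1 neural gene were lower, and their part was not tested.

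The stage difference of embryos was also computed within each condition. Within normal pregnancies alone 6 of 33 members were called, where 15.1% of all genes were: Gapdh (1.39), Pgk1 (1.54), Pdha1 (-0.36), Aldoc (-0.34), Pdhb (-0.34) and Taldo1 (-0.32). Within diabetic pregnancies alone 11 of 34 were called, where 29.2% of all genes were, so that the larger count is not particular to the members. Among them were Eno3 (0.87), Pfkl (0.62), Gys1 (0.58), Gpi1 (0.53), Pygb (0.49) and Aldoa (0.41), with Pdhb (-0.43) the only one lower. Pdhb was thus the only member called lower in both. Taldo1 had 0.04 in diabetic pregnancies. Whether members differ between the conditions was tested by the interaction above, in which Pfkl, Gpi1, Pygb, Aldoa, Pgd, Taldo1 and Pdha1 were called. A member without a call there is not shown to be alike in both conditions, and the calls varied with the setting.

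A further 61 genes of the same pathways were counted for comparison. In late embryos 2 of 35 tested were called, where 5.2% of all genes were called higher, and both were higher under maternal diabetes: glycogenin (Gyg, 0.43 ± 0.10, adjusted p = 0.00999), the primer of glycogen synthesis, and lactate dehydrogenase A (Ldha, 0.21 ± 0.06, adjusted p = 0.0364). None of 38 was called in early embryos and none of 35 and 36 in yolk sacs. The stage by diabetes interaction in embryos called 3 of 39 in the positive direction, where 4.35% of all genes had such a call: hexokinase 1 (Hk1, 0.68), Gyg (0.51) and phosphoribosyl pyrophosphate synthetase 1 (Prps1, 0.29). Between tissues 21 of 44 were higher and 15 lower in yolk sacs with 5–6 somite pairs, where 39.4% and 39.8% of all genes were called. With 7–9 somite pairs 18 of 41 were higher and 12 lower, where the shares of all genes were 38.7% and 42.6%. Among the higher genes at the later stage were isozymes with log2 differences of 4.73 for Fbp2, 4.66 for the liver and red cell pyruvate kinase Pklr and 3.68 for Hkdc1, while Pgam2 (-3.16), the glycogen targeting subunit Ppp1r3c (-2.42), Ldhb (-2.04) and hexokinase 2 (Hk2, -1.57) were lower.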

How the data were processed

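QuantSeq 3′ FWD libraries carry unique molecular identifiers. According to the submitters' processing notes, STAR, HTSeq and the mm10 genome were used (versions not given in the sources used here). The deposited values are raw counts per gene, without normalization, for 136 libraries, of which 4 duplicates were left out. Library totals of 1017901 to 5658850 set the precision. Symbols were completed from GENCODE, and promoters are from RefSeq.

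Each comparison was fitted on all genes with edgeR 4.0.16 (glmQLFit, glmQLFTest, TMM, filterByExpr with a minimum count of 10) in R 4.3.3. P-values were adjusted by Benjamini-Hochberg over all genes, and an adjusted p under 0.05 was a call. Levels are counts divided by DESeq2 1.42.0 size factors. Litter means of log2(level + 1) were compared by two-sided exact permutation, only for members called under diabetes and without adjustment over them. Embryo and yolk sac of a conceptus are paired by the labels, and their deviations from the group means correlated by 0.102 (5–6 somite pairs) and 0.0455 (7–9, medians). Diabetic and normal concepti share no dam.

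Alternatives were RLE factors, DESeq2, no filter, litter as a random block (limma 3.58.1), counts summed per litter, covariates (somite number and sex, or title number), the replicate block, each condition alone, and each litter left out. Copy rows added to their gene, the fit without 2 concepti of unlike sexes, litters left out of the stage comparisons of embryos, the litter block for the stage by diabetes interactions, and removal of GC and length trends (lowess, span 0.3) were chosen after seeing the data. The scripts were tested on simulated data. The members and lists were chosen with earlier results of these data known. Values are given for members called under diabetes or in an interaction, for up to 5 higher and 5 lower members with a group mean of at least 10 in each tissue and stage comparison, and for the most abundant member of each role. Other members given with values, such as Eno1, Pfkfb3 and G6pdx, were named after their values were seen.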

Additional observations from a re-analysis of the deposited data

Results flagged for a closer look

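The difference between diabetic and normal embryos itself differed between the 5–6 and the 7–9 somite stages for 7 members, by an interaction term in edgeR. The term (later minus earlier, log2) was 0.58 for Pygb, 0.55 for Pfkl, 0.48 for Gpi1, 0.46 for Aldoa, 0.39 for Pgd, 0.35 for Taldo1 and 0.34 for Pdha1. With GC and length trends removed, Pygb, Pfkl and Pdha1 were called (adjusted p = 0.0346, 0.0426 and 0.0241), while Pgd, Gpi1, Aldoa and Taldo1 had adjusted p-values of 0.062, 0.106, 0.11 and 0.186. With the litter as a random block (limma), all of these but Pdha1 (adjusted p = 0.0505) were called. Pgd and Aldoa were called without each of the 22 litters in turn. Pygb lost its call without N28M06 and Pfkl without D28M23 or N28M06. Gpi1 lost it without D28M23, D28M36, D28M53, N24M21, N28M05 or N28M06, Taldo1 without D28M23, D28M31, D28M53, N28M05, N28M06 or N28M22, and Pdha1 without any of the litters named for Taldo1, N28M25 or N28M30. Without D28M23 or N28M06, 3 members were called, and without D28M53 or N28M05, 4 were.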

How the results depend on the processing

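The yolk sac comparisons of diabetic with normal pregnancies gave 0 calls under every alternative run, with or without any litter, and the counts for the tissue comparisons stayed within 1.5 times. With the replicate block (conceptus), 31 members were called between tissues at the 5–6 somite stages (30 without it) and 28 at the 7–9 somite stages (28 without it), and the block left both tissue by diabetes interactions at 0. In early embryos the 1 call became 2 with DESeq2 and with the title number as a covariate, and 0 with the litter block and with counts summed per litter, and ranged from 0 to 2 when litters were left out (0 without D28M53 or N28M06, 2 without N23M31 or N24M21). In late embryos the 6 calls became 3 with no filter, with GC and length trends removed and without the single conceptus of unlike sexes at that stage. They became 2 with the litter block and 0 with counts summed per litter, and ranged from 2 to 8 when litters were left out. Summing per litter leaves 13 sums in place of 32 libraries, and the cause of this move and of the others was not tested. Between stages, 14 members were called in embryos and 11 to 15 when litters were left out, 9 with GC and length trends removed and 6 in normal pregnancies only. In yolk sacs 8 members were called, and 1 in normal pregnancies only, with fewer libraries in each fit by condition. Taldo1 changed sign between embryo stages in diabetic pregnancies only (0.0431). The 7 interactions of stage and diabetes in embryos became 4 with no filter and 3 with GC and length trends removed, stayed at 7 with the litter block, and ranged from 3 to 10 when litters were left out. Genes under about 10 counts in most libraries (Pfkfb2, Pdk2, Pdk4, Fbp1, and in some comparisons Eno2, Aldoc, Pgk1 or Pfkfb1) were not tested at this depth.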

Other observations

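The 4 duplicate libraries that were left out come from 2 concepti, each with its embryo and its yolk sac. Over the members, the median absolute log2 ratio between a duplicate and its original was 0.127 and 0.0531 in the embryos and 0.0505 and 0.0933 in the yolk sacs, and the largest ratio of a single member was 1.31. For 3 of the 4 pairs the counts over genes differed by less than sampling noise in a chi-square test. The other pair, the embryo D24M15Ge8 of litter D24M15, differed by more than sampling noise in that test and had the largest median ratio (0.127).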
